A study of Mus musculus with 32 samples.

Results

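ATF4 is a transcription factor that cells make in larger amounts when amino acids run short or when the translation factor eIF2 is phosphorylated, and its targets supply cells with amino acids. The set described here comprised 34 genes of this amino acid response, chosen by gene symbol: Atf4 itself and other stress regulators, inhibitors of translation and of the growth kinase complex mTORC1, enzymes of amino acid and one-carbon metabolism, amino acid transporters, the lipoprotein receptor Vldlr and the tRNA exporter Xpot. A probe set assigned to 1 symbol alone was found for 33 of the 34 genes, out of 23410 probe sets with a symbol and 35556 in all. Pycr1, the last enzyme of proline synthesis, had no probe set of its own.

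The 32 arrays came from 4 lines of Ba/F3 cells, a murine pro-B line that depends on interleukin-3 (IL-3), with 8 arrays for each line. Ba/F3-gp130 cells carried the human signal transducer gp130 (below, the parental line), and the other lines were made from them. The labels give growth with Hyper-IL-6, a fusion of IL-6 with its soluble receptor that acts through gp130, for every array. The methods state it for the parental cells and for selection after transduction, and also describe growth of transduced cells on their own ligands. The line Ba/F3-IL-12Rβ1-IL-23R (the natural receptor line) carried the natural chains of the IL-23 receptor. The line Ba/F3-SyCyR(IL-23/2A) (the paired SyCyR line) carried synthetic cytokine receptors, SyCyRs, in which a nanobody against mCherry replaced the outer part of IL-23R and a nanobody against GFP that of IL-12Rβ1, and Ba/F3-SyCyR(IL-23R) (the single SyCyR line) carried IL-23R with the GFP nanobody alone. All constructs were introduced with retroviruses, each was represented by 1 selected line, and construct and line therefore cannot be told apart. By the methods, washed cells of the receptor lines were kept for 3 h without serum and then given 100 ng/ml ligand (Hyper-IL-23, a GFP-mCherry fusion or 3xGFP) or supernatant of untransfected CHO-K1 cells for 1 h, with 4 replicates per state. Treatment of the parental arrays is not described there. The labels give the line and a title number from 13 to 20 for each array but no treatment, so odd and even numbers are used below only as a split of the titles, with 4 arrays on each side in every line. For scale, Socs3, a feedback inhibitor induced by STAT3 and not a member of the set, differed between odd and even numbers by -0.04 in parental cells, 4.57 in natural receptor cells, 3.77 in paired SyCyR cells and 2.98 in single SyCyR cells (log2 differences, limma).

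Uncharged tRNA activates the kinase GCN2, which phosphorylates eIF2 and lowers general translation while that of Atf4 mRNA rises. ATF4 protein then pairs with C/EBP factors and binds a composite element in the control regions of Asns, Trib3, Chac1 and other targets. This first step acts on translation, so the RNA of Atf4, which an array measures, need not follow the amount of its protein.

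The core of this element, TGATGNAA, was searched on both strands in the 250 bases before the start of each gene (RefSeq, GRCm38.p6). An entry was found for 27 members, with 33 promoters between them, of which 6 (18.2%) held the core, against 3.45% of all 32851 promoters in the table. The matches lay at Chac1, Slc7a11, Asns, Nupr1, Pycr1 and Vldlr. The stretches of 4 of these are shown, Slc7a11 and Nupr1 because their levels differed widely between the lines, and Asns and Chac1 as textbook targets. They are written 5′ to 3′ on the strand of the gene, with the core in capitals.
Slc7a11, chr3:50443637-50443695, minus strand: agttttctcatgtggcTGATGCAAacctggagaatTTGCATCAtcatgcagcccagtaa
Nupr1, chr7:126625557-126625596, minus strand: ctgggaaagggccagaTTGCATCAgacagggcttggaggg
Asns, chr6:7693210-7693248, minus strand: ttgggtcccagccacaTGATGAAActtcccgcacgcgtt
Chac1, chr2:119351033-119351072, plus strand: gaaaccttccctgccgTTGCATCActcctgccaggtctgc
Slc7a11 held the core once on each strand, and the other 3 held it once. The STAT core TTCNNNGAA lay in 5 of the 33 promoters (15.2%), at Slc7a11, Slc7a1, Nupr1, Shmt2 and Aldh18a1, against 7.02% of all promoters, and at Slc7a11 and Nupr1 it did not overlap the cores in capitals. These matches describe the letters only. Binding was not measured.

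Values are log2 RMA levels, and a difference of 1 is a 2-fold change. No detection call was given with the arrays, so levels were read against the median level of all probe sets, 7.04. By that measure 29 of the 33 members lay above the median in their mean over all arrays, while Aldh1l2 (mitochondrial folate enzyme), Cth (cysteine synthesis), Slc7a3 (cationic amino acid transporter) and Vldlr were not shown to be above background. Medians of single arrays ranged from 6.94 to 7.18, and arrays of 1 line correlated with each other at 0.988 or more. Of 10 measured pro-B cell markers only Cd79a, Cd79b and Igll1 lay above the median, with Ebf1, Pax5, Rag1, Rag2, Dntt, Il7r and Vpreb1 below it in all lines. All 3 measured erythroid markers, 3 of 7 granulocyte and macrophage markers, 2 of 7 mast cell and basophil markers and 1 of 4 T cell markers lay above it.

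Odd and even numbers were compared first. A single member passed: Ddit4, which encodes REDD1, an inhibitor of mTORC1, was lower in the odd-numbered arrays of natural receptor and paired SyCyR cells. In natural receptor cells the odd-numbered arrays 13, 15, 17 and 19 read 8.17, 7.97, 8.48 and 8.14, and the even-numbered arrays 14, 16, 18 and 20 read 9.50, 9.05, 9.59 and 9.71. Every odd value lay below every even value. In RNA of whole cultures, a different share of cells expressing a gene and a different amount of RNA per cell cannot be told apart. The log2 difference was -1.28 ± 0.12 (SE, n = 4 and 4), a 2.42-fold change, with an adjusted p of 7.32e-09 by limma. No other member passed the adjusted threshold of 0.05 in this line, so that 1 of 33 passed against 3.12% of all probe sets.

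Ddit4 in paired SyCyR cells read 9.52, 9.14, 9.34 and 9.45 in the odd-numbered arrays and 10.18, 9.77, 9.70 and 10.04 in the even-numbered ones. The values again did not overlap, but lay closer together than in the line with the natural receptor. The difference was -0.56 ± 0.12 (adjusted p = 0.0127, limma), and Ddit4 was the only member to pass, against 0.953% of all probe sets. This call was lost when number 14 (-0.47), 15 (-0.49) or 20 (-0.52) was left out of all lines.

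In single SyCyR cells the odd-numbered arrays read 9.29, 9.42, 9.39 and 9.65 for Ddit4, and the even-numbered arrays 9.55, 9.78, 9.83 and 9.96. The groups overlapped, although each odd value lay below its even successor in 4 of 4 cases. The difference of -0.34 ± 0.12 did not pass (adjusted p = 1, unadjusted p = 0.00902, limma). No member passed in this line, against 0.175% of all probe sets, with 2 at an unadjusted p under 0.05.

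In parental cells Ddit4 read 9.58, 9.71, 9.65 and 9.73 in the odd-numbered arrays and 9.59, 9.49, 9.51 and 9.75 in the even-numbered ones. The 2 sides overlapped, with a difference of 0.08 ± 0.12. No member passed in this line, against 0% of all probe sets, and none had an unadjusted p under 0.05 in limma.

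The difference between lines was tested itself. The odd-even difference of Ddit4 was lower by 1.36 ± 0.17 on the log2 scale in natural receptor than in parental cells, with the same sign in all 4 consecutive pairs of the former and in 2 of 4 of the latter (adjusted p = 4.43e-06, limma). It was the only member to pass, against 1.2% of all probe sets. The same difference was -0.64 ± 0.17 for paired SyCyR (adjusted p = 0.172) and -0.43 ± 0.17 for single SyCyR cells (adjusted p = 1), both against the same parental arrays, and no member passed, against 0.402% and 0.0982% of all probe sets. Between paired SyCyR and natural receptor cells it was 0.72 ± 0.17 without the number block (adjusted p = 0.135) and passed with title number as a block (adjusted p = 0.0401, limma). No member passed without the block there, against 0.111% of all probe sets. Between the SyCyR lines none passed either, against 0.0812%.

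**Figure D1:**
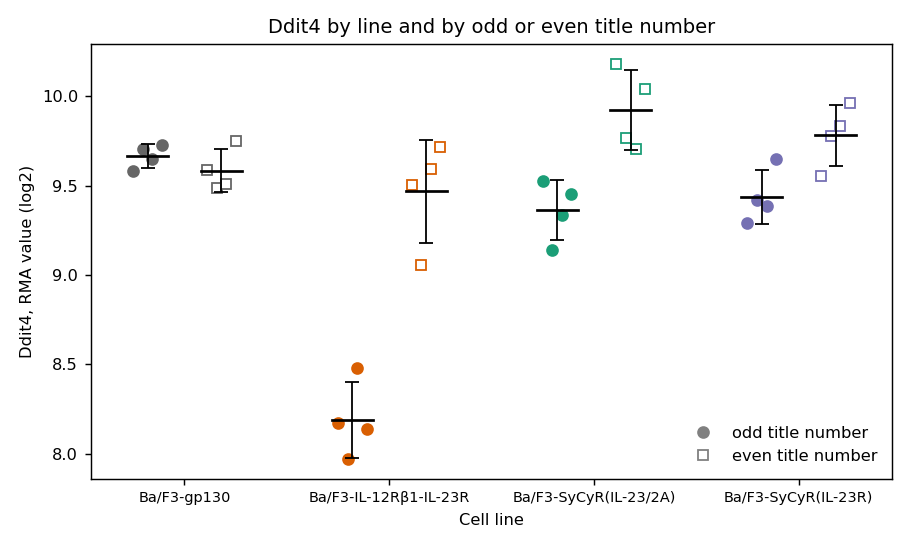
RMA level of Ddit4 (log2, y axis) in the 32 arrays by cell line (x axis), with filled circles for odd and open squares for even title numbers. Horizontal bars are means and error bars SD of 4 arrays. Odd and even values overlap in parental and single SyCyR cells and are apart in the other 2 lines, with odd values of 7.97 to 8.48 against even values of 9.05 to 9.71 in natural receptor cells.

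Asns, Trib3, Chac1, Atf4 and Ddit3, which were given whatever their values, did not pass between odd and even numbers without a block. Asns, which makes asparagine, differed by -0.00 ± 0.08 in natural receptor, 0.02 ± 0.08 in paired SyCyR and -0.00 ± 0.08 in single SyCyR cells. Trib3, a pseudokinase that restrains ATF4, differed by -0.05, 0.00 and 0.04 (SE 0.27 each), and Chac1, which degrades glutathione, by 0.09, 0.07 and 0.04 (SE 0.07 each). Atf4 itself differed by 0.15, -0.01 and 0.06 (SE 0.09 each), and Ddit3, the pro-apoptotic factor CHOP, by -0.22, -0.24 and -0.02 (SE 0.24 each). The median difference over the 33 members was -0.03 in natural receptor cells, -0.01 in paired SyCyR cells and -0.03 in single SyCyR cells, beside medians of 0.00 for all probe sets in each line.

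Consecutive numbers within a line deviated together from the means of their groups (correlation of 0.132 or more in all 16 pairs), and a fit with these pairs as a block added members. In natural receptor cells 4 members passed with the block, while the share of all probe sets rose from 3.12% to 8.39%. Ddit4 passed again, Atf4 was higher in the odd-numbered arrays by 0.15 (adjusted p = 0.0391, limma), higher in 4 of 4 pairs, while Ddit3 was lower by 0.22 (adjusted p = 0.0329) and the mTORC1 inhibitor Sesn2 by 0.24 (adjusted p = 0.0369), each lower in 4 of 4 pairs. In paired SyCyR cells, where the share of all probe sets rose from 0.953% to 1.61%, Ddit4 was joined by Nupr1, a small stress-induced chromatin protein, which was higher by 0.40 in the odd-numbered arrays (adjusted p = 0.00112, limma) and higher in 4 of 4 pairs. The odd-numbered arrays of that line read 8.89, 9.27, 8.90 and 9.02 for Nupr1 and the even-numbered arrays 8.62, 8.92, 8.33 and 8.59, so the 2 sides overlapped. Without regard to any test, odd and even values did not overlap for Ddit4, Psat1 and Shmt2 in natural receptor cells (against 7.98% of all probe sets), for Ddit4 and Shmt2 in paired SyCyR cells (against 5.06%), for Cth in single SyCyR cells (against 1.76%) and for no member in parental cells (against 1.26%). Psat1 and Shmt2 are enzymes of serine and glycine synthesis.

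The lines were then compared over all 8 arrays of each. Against parental cells, 2 members were higher and 6 lower in natural receptor cells, where 18.4% of all probe sets passed (7.91% higher, 10.5% lower). In paired SyCyR cells 3 were higher and 1 lower, against 7.28% of all probe sets (3.04% higher, 4.24% lower), and in single SyCyR cells 8 were higher and 1 lower, against 15.4% (6.74% higher, 8.68% lower). With a 1.5-fold change required as well, 2, 1 and 2 members passed, against 2.97%, 0.739% and 1.61% of all probe sets. These shares include dim probe sets, while 29 of the 33 members lay above the median level. In a fit of the 13061 probe sets above it, 31.4%, 13.5% and 25.9% passed at an adjusted p under 0.05, in the same order. The median difference of the members was -0.04, 0.02 and 0.08 in these 3 comparisons, beside 0.01 for all probe sets in each. The 3 comparisons share the parental arrays. Without regard to any test, the arrays did not overlap with those of parental cells for 3 members in natural receptor cells, Nupr1, Sesn2 and Mthfd2 (against 6.43% of all probe sets), for none in paired SyCyR cells (2.4%) and for 3 in single SyCyR cells, Nupr1, Phgdh and Slc7a11 (4.73%). Between the receptor lines, 8 members were higher and 1 lower in paired SyCyR than in natural receptor cells, against 18.9% of all probe sets (9.68% higher, 9.23% lower). In single SyCyR cells 8 were higher and 1 lower than in paired SyCyR cells, against 8.43% of all probe sets (4.33% higher, 4.10% lower). Among the 13061 probe sets above the median, 32.5% and 15.7% passed in these 2 comparisons. The arrays did not overlap for Nupr1 and Psph in the former comparison (against 5.72% of all probe sets) and for Phgdh in the latter (2%).

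Among the regulators, Nupr1 separated the lines most widely. Its lowest, median and highest values over 8 arrays were 7.99, 8.56 and 8.69 in parental, 7.21, 7.40 and 7.73 in natural receptor, 8.33, 8.90 and 9.27 in paired SyCyR, and 8.70, 9.52 and 9.85 in single SyCyR cells. Every array of natural receptor cells lay below, and every array of single SyCyR cells above, all arrays of parental cells. The differences from parental were -1.02 ± 0.13 (2.03-fold, adjusted p = 4.55e-07) and 0.92 ± 0.13 (1.90-fold, adjusted p = 6e-06) for these lines, while 0.38 ± 0.13 for paired SyCyR cells did not pass (adjusted p = 0.081, limma). Nupr1 was 1.41 ± 0.13 higher in paired SyCyR than in natural receptor cells and 0.54 ± 0.13 higher in single SyCyR than in paired SyCyR cells (adjusted p = 9.91e-10 and 0.00736, limma).

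Atf4 RNA had its highest median in single SyCyR cells. The lowest, median and highest values were 10.63, 10.88 and 10.96 in parental, 10.67, 10.84 and 11.16 in natural receptor, 10.78, 10.90 and 11.06 in paired SyCyR, and 10.89, 11.16 and 11.25 in single SyCyR cells. All 4 ranges overlapped. Atf4 was higher in single SyCyR than in parental cells by 0.28 ± 0.07 (adjusted p = 0.00384, limma), and higher in 8 of 8 same-numbered arrays. The differences of 0.03 ± 0.07 for natural receptor and 0.07 ± 0.07 for paired SyCyR cells did not pass.

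Trib3 and Ddit3 varied more within lines than Atf4. Trib3 had lowest, median and highest values of 8.54, 9.37 and 9.66 in parental, 8.71, 8.79 and 9.19 in natural receptor, 8.94, 9.22 and 9.66 in paired SyCyR, and 8.98, 9.75 and 10.43 in single SyCyR cells. Its differences from parental of -0.36 ± 0.19, 0.02 ± 0.19 and 0.48 ± 0.19 did not pass without a block (adjusted p = 0.217, 0.976 and 0.0848, limma). Trib3 was higher in 7 of 8 same-numbered arrays of single SyCyR than of parental cells, and passed there with title number as a block. Ddit3 had values of 8.89, 9.47 and 9.79 in parental, 8.62, 8.97 and 9.44 in natural receptor, 8.86, 9.17 and 9.58 in paired SyCyR, and 8.86, 9.53 and 10.25 in single SyCyR cells. Its differences of -0.46 ± 0.17, -0.20 ± 0.17 and 0.14 ± 0.17 did not pass either (adjusted p = 0.0593, 0.577 and 0.673). Same-numbered arrays of natural receptor and parental cells deviated together, and with the number as a block Ddit3 (adjusted p = 0.000344, lower in 8 of 8 pairs) and Trib3 (adjusted p = 0.011, lower in 6 of 8) passed in this comparison, together with Ppp1r15a, the phosphatase subunit GADD34 (0.26, adjusted p = 0.00949), and Asns (-0.12, adjusted p = 0.0365, limma). The count of members rose from 8 to 12 there and the share of all probe sets from 18.4% to 25%. Atf5, a factor related to ATF4, passed in no line against parental without the block, with differences of 0.16, -0.10 and 0.27 (SE 0.20 each).

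Among the inhibitors, Sesn2 fell in natural receptor cells. Its lowest, median and highest values there were 8.74, 8.88 and 9.26, all below the 9.28, 9.42 and 9.58 of parental cells. The difference was -0.50 ± 0.08 (1.41-fold, adjusted p = 9.12e-06, limma). In single SyCyR cells Sesn2 had values of 9.37, 9.60 and 10.20, higher by 0.23 ± 0.08 (adjusted p = 0.0383), and in paired SyCyR cells 9.06, 9.30 and 9.46, a difference of -0.14 ± 0.08 that did not pass (adjusted p = 0.324). Eif4ebp1, which blocks the cap-binding factor eIF4E, was higher in single SyCyR cells by 0.14 ± 0.04 (adjusted p = 0.0254, limma). Chac1 differed by -0.04, 0.06 and 0.05 (SE 0.05 each) from parental in the 3 lines and passed in none, with all of its values between 7.55 and 8.00.

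The lower level of Ddit4 in natural receptor cells rested on the odd-numbered arrays. Over all 8 arrays the difference from parental cells was -0.80 ± 0.09 (1.74-fold, adjusted p = 1.63e-08, limma). The means of the odd-numbered arrays were 8.19 and 9.67, and those of the even-numbered arrays 9.47 and 9.58, which is a difference of -1.48 on the odd and -0.12 on the even side. In paired SyCyR cells the odd side differed from parental cells by -0.30 and the even side by 0.34, and over all arrays the difference was 0.02 ± 0.09. Nupr1 and Slc7a11 kept the sign of each passing line difference on both sides of the split.

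Slc7a11, the cystine transporter that supplies cysteine for glutathione, had the widest line difference of the set in the SyCyR lines. Its lowest, median and highest values were 8.53, 9.15 and 9.49 in parental, 8.50, 9.04 and 9.45 in natural receptor, 9.16, 9.80 and 10.24 in paired SyCyR, and 9.98, 10.57 and 11.45 in single SyCyR cells. Every array of single SyCyR cells lay above every array of parental cells, while paired SyCyR overlapped with both. Slc7a11 was 1.57 ± 0.19 higher in single SyCyR than in parental cells (2.96-fold, adjusted p = 5.32e-07) and 0.67 ± 0.19 higher in paired SyCyR cells (1.60-fold, adjusted p = 0.0286, limma), each in 8 of 8 same-numbered arrays. It was 0.89 ± 0.19 higher in single SyCyR than in paired SyCyR cells (adjusted p = 0.00246). Of 7 granulocyte and macrophage markers, 3 were higher and 1 lower in single SyCyR than in parental cells, against 15.4% of all probe sets. Itgam and Lyz2 were higher by 1.86 and 1.43 (limma), while Mpo was lower, with a median of 7.88 against 9.90. The part of these markers in the differences of Slc7a11 and Nupr1 was not tested. The natural receptor line did not pass against parental (-0.06 ± 0.19, 95% interval -0.46 to 0.33). Leaving out number 13, 14, 15, 16, 19 or 20 ended the call of paired SyCyR against parental cells, with differences of 0.60 to 0.74 and adjusted p of 0.0504 to 0.0743.

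Among the other transporters, Slc38a2 was lower in the SyCyR lines and Slc1a4 higher in the natural receptor line. Slc3a2, the heavy chain that SLC7A11 and SLC7A5 need at the cell surface, differed from parental by -0.00, -0.08 and 0.06 in the 3 lines (SE 0.07 each) and passed in none, as did Slc7a5, the large neutral amino acid transporter, at 0.00, -0.09 and 0.07 (SE 0.08 each). Slc38a2, the glutamine transporter SNAT2, had values of 12.62, 12.70 and 12.78 in parental, 12.54, 12.63 and 12.86 in natural receptor, 12.45, 12.52 and 12.66 in paired SyCyR, and 12.32, 12.47 and 12.71 in single SyCyR cells. It was lower by 0.16 in paired SyCyR and by 0.21 in single SyCyR cells (SE 0.05 each, adjusted p = 0.0396 and 0.00279, limma), in 8 of 8 same-numbered arrays each. Slc1a4, which carries alanine and serine, was 0.20 ± 0.06 higher in natural receptor cells (adjusted p = 0.00992). The remaining transporters, Slc7a1, Slc7a3, Slc38a1 in its brighter probe set, Slc1a5 and the glycine transporter Slc6a9, passed in no comparison with parental cells. The other probe set of Slc38a1 read 9.97 to 10.41 in parental and 9.81 to 10.03 in paired SyCyR cells. It read 9.86 to 10.27 in natural receptor and 9.84 to 10.26 in single SyCyR cells, and no test of it is given.

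**Figure D2:**
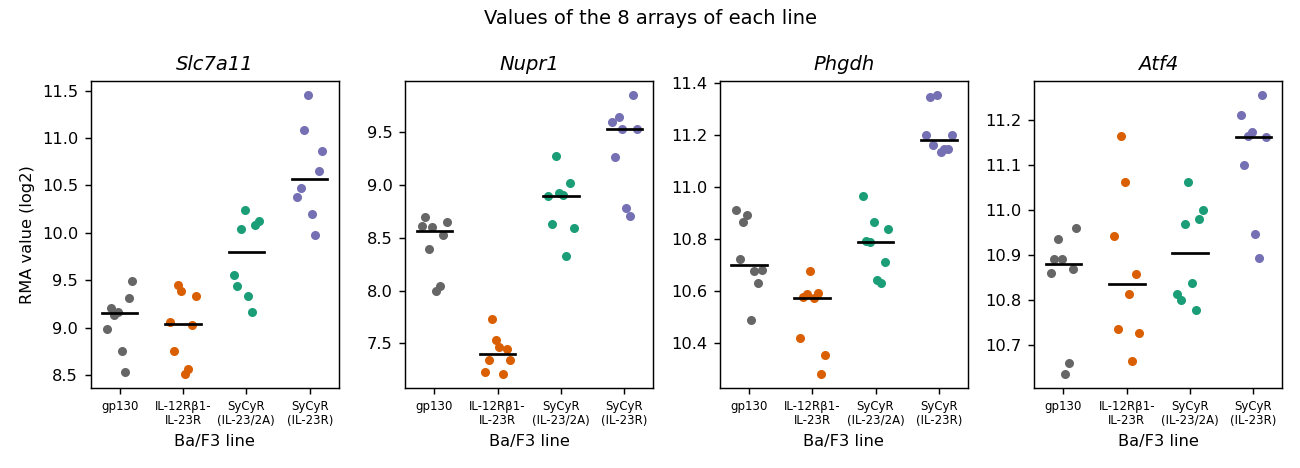
RMA levels (log2, y axes, 1 scale per gene) of Slc7a11, Nupr1, Phgdh and Atf4 in the 8 arrays of each Ba/F3 line (x axes), with points for arrays and bars for medians. The arrays of the SyCyR(IL-23R) line lie above all gp130 arrays for Slc7a11, Nupr1 and Phgdh and overlap with them for Atf4.

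Of the 6 serine, glycine and one-carbon enzymes, Phgdh, the first enzyme of serine synthesis, had the largest differences from parental cells in natural receptor and single SyCyR cells, and Psph in paired SyCyR cells. The lowest, median and highest values of Phgdh were 10.49, 10.70 and 10.91 in parental, 10.28, 10.58 and 10.68 in natural receptor, 10.63, 10.79 and 10.97 in paired SyCyR, and 11.13, 11.18 and 11.35 in single SyCyR cells. The arrays of single SyCyR cells lay above those of parental and of paired SyCyR cells without overlap. Phgdh was higher in single SyCyR than in parental cells by 0.48 ± 0.06 (1.39-fold, adjusted p = 1.38e-06) and lower in natural receptor cells (-0.23 ± 0.06, adjusted p = 0.00905, limma), while 0.05 ± 0.06 in paired SyCyR cells did not pass. The next enzyme of the pathway, Psat1, passed in no line, with differences of -0.01, -0.05 and 0.08 (SE 0.05 each). Psph, which completes serine synthesis, had values of 8.32, 8.48 and 8.60 in parental and 8.57, 8.60 and 8.81 in paired SyCyR cells, and was higher there by 0.19 ± 0.06 (adjusted p = 0.0337). In natural receptor cells the mitochondrial enzyme Shmt2 was lower (-0.17 ± 0.04, adjusted p = 0.00544) and Mthfd2 higher (0.20 ± 0.06, adjusted p = 0.00967, limma).

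Asns, the asparagine synthetase gene, passed in single SyCyR cells. Its lowest, median and highest values were 12.89, 13.09 and 13.15 in parental, 12.83, 12.94 and 13.04 in natural receptor, 12.86, 12.96 and 13.14 in paired SyCyR, and 13.07, 13.20 and 13.34 in single SyCyR cells. Its difference of 0.15 ± 0.05 in single SyCyR cells was at the threshold (adjusted p = 0.0489, limma) and had the same sign in 8 of 8 same-numbered arrays. Gpt2, a mitochondrial alanine transaminase, had values of 9.31, 9.47 and 9.73 in parental, 8.84, 9.22 and 9.45 in natural receptor, 9.36, 9.44 and 9.60 in paired SyCyR, and 9.44, 9.75 and 10.10 in single SyCyR cells. It was lower in natural receptor cells (-0.29 ± 0.09, adjusted p = 0.0139) and higher in single SyCyR cells (0.26 ± 0.09, adjusted p = 0.0397). Cth was 0.33 ± 0.09 higher in paired SyCyR than in parental cells (adjusted p = 0.0307, limma), with values of 6.52 to 7.38 against 6.03 to 6.72, at levels not shown to be above background. Aldh18a1, an enzyme of proline synthesis, and Cbs, which makes cystathionine, passed in no line.

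Sesn2, Gpt2, Asns and Eif4ebp1 lost their call in single SyCyR against parental cells when number 14, 16 or 17 was left out, which brought the count of passing members from 9 to 5. Against the same parental cells, the count for paired SyCyR cells fell from 4 to 0 without number 15, 16 or 19, to 1 without 13, 14 or 18 and to 2 without 20. Centring each array on its median ended the calls of Sesn2, Asns and Gpt2 in single SyCyR, of Mthfd2 and Slc1a4 in natural receptor and of Psph and Slc38a2 in paired SyCyR against parental cells (adjusted p of 0.0524 to 0.0948, limma), with all signs kept, and brought Ddit3 in natural receptor cells under the threshold (-0.48, adjusted p = 0.0393).

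**Figure D3:**
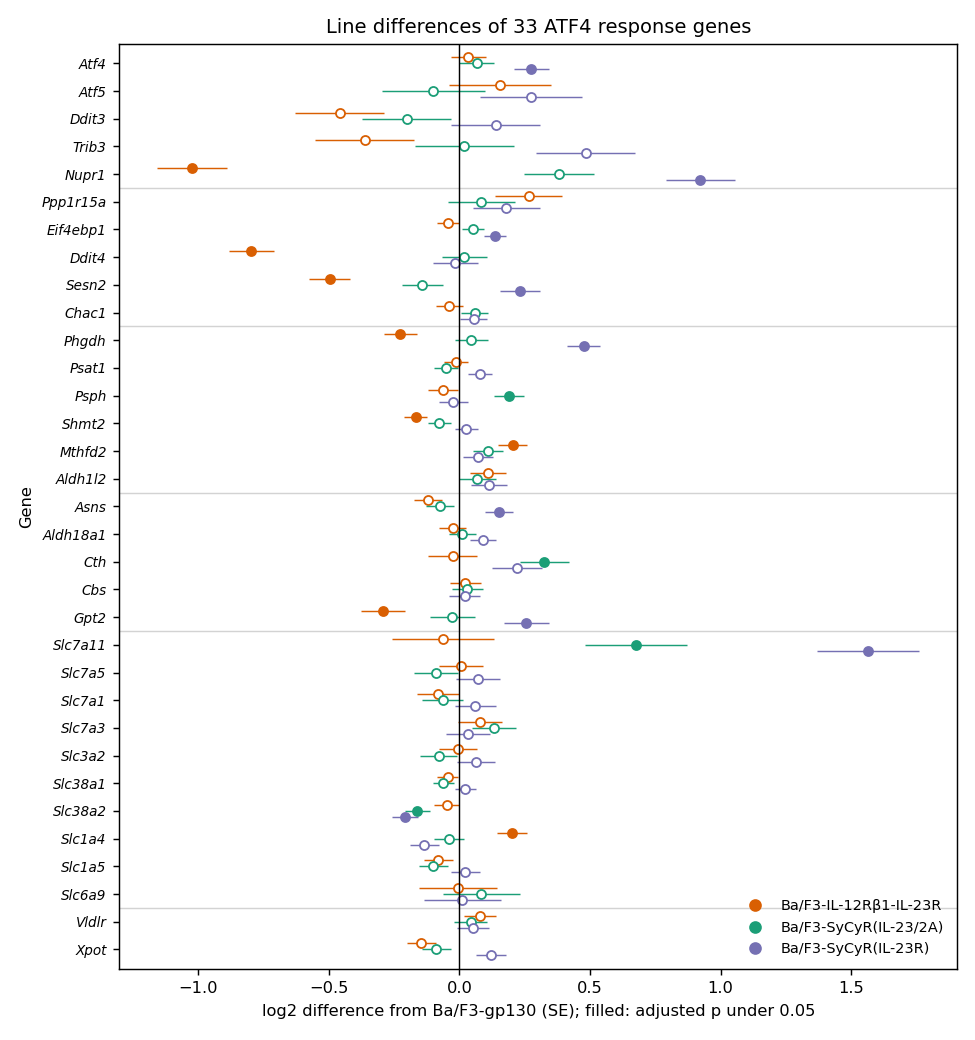
Difference from parental cells (log2, x axis, with SE) of the 33 members with a probe set (y axis, grouped by role) in the 3 receptor lines, with filled points for an adjusted p under 0.05 (limma). Slc7a11 at 1.57 and Nupr1 at 0.92 lie farthest to the right, both in single SyCyR cells, and Nupr1 at -1.02 and Ddit4 at -0.80 farthest to the left, both in natural receptor cells.

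Between the SyCyR lines, the members higher in single SyCyR than in paired SyCyR cells were Slc7a11, Nupr1, Phgdh, Sesn2, Gpt2, Asns (0.23 ± 0.05, adjusted p = 0.00483), Xpot (0.21 ± 0.06, adjusted p = 0.0161) and Atf4 (0.21 ± 0.07, adjusted p = 0.0496, limma). Psph was lower (-0.21 ± 0.06, adjusted p = 0.0132). The count fell from 9 to 4 when number 20 was left out. Between paired SyCyR and natural receptor cells, Nupr1, Ddit4, Slc7a11, Sesn2, Cth, Phgdh, Gpt2 and Psph were higher in the former and Slc1a4 was lower (-0.24 ± 0.06, adjusted p = 0.00208, limma). With title number as a block, Trib3 (0.38, adjusted p = 0.00749), Ddit3 (0.26, adjusted p = 0.0388), Atf5 (-0.26, adjusted p = 0.0489) and Slc38a2 (-0.11, adjusted p = 0.0196) passed there as well, which made 13 members, while the share of all probe sets rose from 18.9% to 25.5%.

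Markers of other blood cells differed between the lines too. Of 7 granulocyte and macrophage markers, 3 were higher and 1 lower in single SyCyR than in parental cells (limma), each by at least 1.5-fold (all probe sets, 15.4% and, with 1.5-fold, 1.61%). These were Itgam, an integrin chain (1.86), Lyz2, a lysozyme (1.43), Ctsg, cathepsin G (1.33), and Mpo, myeloperoxidase (-1.89). The median of Itgam was 7.80 against 5.93 and that of Lyz2 7.25 against 5.82, both without overlap of the arrays. In natural receptor cells Mpo (-2.54), Ctsg (-1.28) and Elane (-0.16) were lower, and in paired SyCyR cells Prtn3 (0.35) and Elane (0.23) were higher. Of 7 mast cell and basophil markers, Gata2 (-0.68), Hdc (-0.49) and Mcpt8 (-0.49) were lower in natural receptor cells, none passed in paired SyCyR cells, and in single SyCyR cells Fcer1a, a chain of the IgE receptor, was higher (1.40) and Hdc lower (-0.32). The counts of both marker lists stand beside 18.4% of all probe sets in natural receptor, 7.28% in paired SyCyR and 15.4% in single SyCyR cells. The median of Fcer1a was 7.91 in parental, 7.98 in natural receptor, 8.49 in paired SyCyR and 9.56 in single SyCyR cells. In their mean over all arrays Hdc, Mcpt8, Elane, Itgam and Lyz2 were not shown to be above background. The medians of Itgam and Lyz2 lay above 7.04 in single SyCyR cells alone.

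Summed on the linear scale and given as log2, the mast cell and basophil markers lay between 12.24 and 12.77 in natural receptor cells against 13.03 to 13.27 in parental, 12.70 to 13.22 in paired SyCyR and 12.84 to 13.23 in single SyCyR cells. The granulocyte and macrophage markers lay between 11.59 and 11.96 in natural receptor cells, against 11.98 to 12.27, 12.22 to 12.54 and 12.02 to 12.40 in the same order. These sums follow mainly 1 gene each, Gata2 with 83.9% to 92.8% of the former and Prtn3 with 57.2% to 88.5% of the latter over the arrays. The part of such differences in those of Nupr1, Slc7a11 and other members was not tested.

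Several members varied with title number in every line. This pattern was noticed after the values were seen and is given without a test. Trib3 in single SyCyR cells read 9.61, 9.54, 10.43, 10.41, 8.98, 8.99, 9.96 and 9.88 in arrays 13 to 20. Numbers 15 and 16 were the highest and 17 and 18 the lowest, and consecutive numbers lay close together. In parental cells Trib3 read 9.43, 9.56, 9.66, 9.57, 8.63, 8.54, 9.22 and 9.32, with the same pairs at the top and bottom.

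As the mean over the lines of the deviation from each line's mean, the range over the 4 pairs of consecutive numbers was 0.95 for Atf5, 0.89 for Trib3, 0.87 for Slc7a11, 0.81 for Ddit3, 0.67 for Slc6a9, 0.58 for Ppp1r15a and 0.52 for Nupr1. The pair 17 and 18 was the lowest for all 7 genes in this mean, and 15 and 16 the highest for all but Slc6a9, for which it was 19 and 20. Taken line by line, Atf5 was lowest in 13 and 14 in paired SyCyR cells, and Nupr1 was lowest in the same pair in natural receptor cells. A range of at least 0.5 was found for these 7 of the 29 members above the median (24.1%), beside 2.58% of the 13061 probe sets above it. The median range was 0.20 for the members and 0.16 for those probe sets.

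The range was not alike in the lines. For Trib3 it was 1.03 in parental, 0.44 in natural receptor, 0.66 in paired SyCyR and 1.43 in single SyCyR cells. For Ddit3 it was 0.83, 0.60, 0.47 and 1.34 in the same order, and for Slc7a11 0.76, 0.89, 0.89 and 1.18. Asns had a range of 0.17 and Psat1 of 0.12 in the mean over the lines. The labels do not say what a title number stands for.

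**Figure D4:**
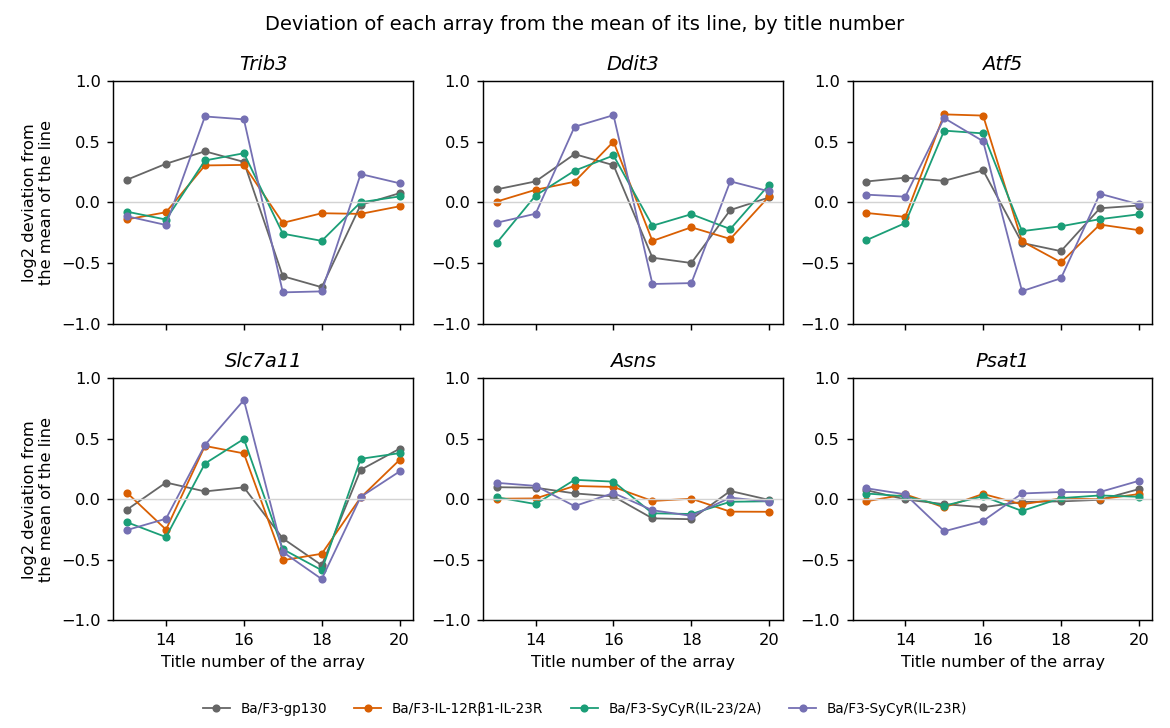
Deviation of each array from the mean of its line (log2, y axes) by title number (x axes) for Trib3, Ddit3, Atf5, Slc7a11, Asns and Psat1, with 1 colour per line. In the first 4 genes the points of numbers 17 and 18 lie low and those of 15 and 16 mostly high, while Asns and Psat1 stay within 0.3 of the mean of the line.

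Over the 29 members above the median, the mean deviation from the mean of all arrays ran from -0.19 to 0.07 in parental, -0.22 to -0.00 in natural receptor, -0.13 to 0.13 in paired SyCyR and -0.03 to 0.31 in single SyCyR cells. Numbers 17 and 18 were the lowest arrays in every line, at -0.19 each in parental, -0.22 each in natural receptor, -0.12 and -0.13 in paired SyCyR, and -0.03 and -0.02 in single SyCyR cells. In natural receptor cells number 19, also at -0.22, and number 13 at -0.21 lay close to them. Over all probe sets above the median the same measure stayed between -0.09 and 0.05 in every array.

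Genes that act with ATF4 were read from 7 lists, and higher and lower refer to the same limma test. Of 15 bZIP partners and related factors, 5 were higher and none lower in the odd-numbered arrays of natural receptor cells (all probe sets, 1.96% higher and 1.16% lower), with Fos (1.71), Cebpd (1.28), Jun (0.84) and Batf (0.78) leading, and the list's median difference was 0.22. Fos and Jun form the AP-1 factor, CEBPD is one of the C/EBP proteins, and BATF pairs with Jun proteins. Paired SyCyR cells had 2 higher, Fos (1.48) and Cebpd (1.42), against 0.846% of all probe sets, with a median of 0.12, and in single SyCyR cells Cebpd (0.66) alone was higher, against 0.171%, with a median of 0.06. The medians of all probe sets were 0.00 throughout. For the line comparisons of all lists, the shares of all probe sets to be set beside the counts were 7.91% higher and 10.5% lower in natural receptor, 3.04% and 4.24% in paired SyCyR, and 6.74% and 8.68% in single SyCyR against parental cells, with medians of 0.01. Most listed genes lay above the median level of 7.04. Among the probe sets above it, 31.4%, 13.5% and 25.9% passed in either direction, in the same order. Against parental cells, 3 partners were higher and 2 lower in natural receptor, 4 higher and none lower in paired SyCyR, and 7 higher and 1 lower in single SyCyR cells, where Fos (0.75), Cebpd (0.65), Nfe2l1 (0.50) and Cebpb (0.44) led. These line differences average odd and even numbers, between which Cebpd also differed in single SyCyR cells. No split by side is given for this list. The list's medians were -0.04, 0.05 and 0.22.

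No eIF2 kinase, eIF2 or eIF2B subunit passed between odd and even numbers in any line, with 12 of 13 measured. Against parental cells, Eif2b5 was lower (-0.53) and Eif2ak2, the kinase PKR, higher (0.38) in natural receptor cells. Eif2b2 was higher (0.19) in paired SyCyR cells, and Eif2ak4, which encodes GCN2, was lower in paired SyCyR (-0.19) and in single SyCyR cells (-0.27). These are 2, 2 and 1 of 12 genes, beside 18.4%, 7.28% and 15.4% of all probe sets. Of 18 measured cytosolic aminoacyl-tRNA synthetases, 6 were lower and none higher in natural receptor cells, with Kars (-0.75), Farsa (-0.35), Vars (-0.23) and Eprs (-0.17) leading (all probe sets, 10.5% lower and 7.91% higher). Paired SyCyR cells had 3 lower and none higher (4.24% and 3.04%). In single SyCyR cells 1 was higher and 1 lower, against 15.4% of all probe sets in both directions. The list's medians were -0.11, -0.04 and 0.02 beside 0.01 for all probe sets.

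Of 16 measured other enzymes of amino acid and one-carbon metabolism, 1 was higher and 8 lower in natural receptor cells, among them Gldc of the glycine cleavage system (0.41), Shmt1 (-0.38) and Odc1, which starts polyamine synthesis (-0.28). In paired SyCyR cells 1 was higher and 1 lower, and in single SyCyR cells 1 higher and 2 lower. The counts of 9, 2 and 3 stand beside 18.4%, 7.28% and 15.4% of all probe sets, and the list's medians were -0.15, 0.01 and 0.03. Of 18 endoplasmic reticulum chaperones and related genes, none was higher and 4 were lower in natural receptor cells, 1 was higher in paired SyCyR and 4 were higher in single SyCyR cells, with Pdia3 (0.27), Sdf2l1 (0.25), the chaperone BiP encoded by Hspa5 (0.22) and Pdia6 (0.18). The counts of 4, 1 and 4 stand beside the same shares, and the list's medians were -0.07, 0.01 and 0.15. Dnajb9, a co-chaperone of BiP, was lower in the odd-numbered arrays of natural receptor cells (-0.69), against 1.16% of all probe sets.

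NRF2 also controls Slc7a11 and other genes of glutathione and thioredoxin metabolism. Of 9 measured NRF2 targets, 3 were higher and none lower in single SyCyR cells, Hmox1 (0.57), Txnrd1 (0.39) and Osgin1 (0.39), with a median of 0.24 beside 0.01 for all probe sets. Gclm (0.20) alone was higher in paired SyCyR cells, and in natural receptor cells Gclm (0.35) and Nqo1 (0.33) were higher and Me1 was lower (-0.24). The counts of 3 in single SyCyR, 1 in paired SyCyR and 3 in natural receptor cells stand beside 15.4%, 7.28% and 18.4% of all probe sets. Of 23 genes of mTORC1 and its amino acid sensing, the pathway that REDD1 and SESN2 inhibit, the arginine sensor gene Castor1 was higher in the odd-numbered arrays of natural receptor (0.47) and paired SyCyR cells (0.55), and the mTOR subunit gene Mlst8 lower in the former (-0.26), against 3.12% and 0.953% of all probe sets. Against parental cells, 5 were higher and 3 lower in natural receptor cells, with Castor2 (2.44) and Sesn1 (0.61) leading, 2 higher and 1 lower in paired SyCyR, and 5 higher and 2 lower in single SyCyR cells. The counts of 8, 3 and 7 stand beside 18.4%, 7.28% and 15.4% of all probe sets, and the list's medians were -0.09, 0.01 and -0.02.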

How the data were processed

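RNA of 32 cultures was hybridised to Affymetrix Mouse Gene ST arrays. The deposited values are log2 signals that the authors obtained with RMA and sketch-quantile normalisation in Affymetrix Expression Console, both named in the submitters' processing notes, with software versions not given in the sources used here. No counts or detection calls come with these arrays, so their number limits the precision. The methods state independent replicates, but the labels do not tie the title numbers to cultures, so p-values measure the spread between arrays, which may in part be technical.

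The values were used as deposited. One linear model with a mean for each line and each side of the odd-even split (4 arrays each) was fitted with limma 3.58.1 in R 4.3.3 to 23410 probe sets with a gene symbol (21789 with 1 symbol, 1621 with several), and 12146 without a symbol were left out. The methods name pairwise comparisons with a 1.5-fold change and p of at most 0.01 but no test, and this rule was run as an alternative. Two-sided p-values were adjusted by the Benjamini-Hochberg method over all 23410 probe sets within each of 14 comparisons, and an adjusted p under 0.05 counted as passing. Errors of differences are SE. Where a gene had several probe sets, the brightest was used, which concerned Slc38a1 alone.

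The members, the lists and the alternatives were chosen with earlier results of these data known. Atf4, Asns, Trib3, Chac1 and Ddit3 were always given. Among members that passed, the 6 with the lowest adjusted p in each odd-even comparison of the receptor lines (3 for parental) and the 5 with the largest difference of each receptor line from parental were given with their arrays. Up to 4 passing genes per list were named by size of difference. Members outside this rule are named so that each is accounted for.

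Pairing was checked on deviations from group means. Consecutive numbers within a line correlated at 0.132 or more in all 16 pairs (median 0.376, against -0.133 for other pairs). Deviations cancel out within a group, so positive values in these pairs largely force negative ones in the others, which are no separate evidence of pairing. Same-numbered arrays correlated at 0.112 or more between natural receptor and parental (median 0.35) and 0.115 or more between paired SyCyR and natural receptor cells (median 0.349). These and the consecutive numbers were treated as pairs, a pairing that comes from the values and not from a label. Lowest and median correlations were 0.0882 and 0.322 for paired SyCyR and 0.0719 and 0.25 for single SyCyR against parental cells. Between the SyCyR lines they were 0.0721 and 0.252. The choice rested on the lowest value alone. On simulated data for odd against even numbers in natural receptor cells (23410 probe sets), the model recovered 50% of changes of 0.3 and 94% of changes of 0.6 (log2). For that line against parental it recovered 78% and 98%. The simulated arrays varied independently, without the shared deviations found above, so these rates need not hold for the data. Figures were drawn with matplotlib 3.10.9.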

Additional observations from a re-analysis of the deposited data

Results flagged for a closer look

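In 132 groups of 8 arrays (33 genes in 4 lines), 4 held an array that lay apart from the other 7 by Dixon's criterion, which chance alone meets in about 1 of 20 groups, or 6.6 here. Aldh1l2 read 5.96 in array 16 of natural receptor cells, against 6.21 to 6.40 in the others, at a level not shown to be above background. Array 20 of the same line read 12.05 for Slc38a1, against 11.86 to 11.95, and 12.86 for Slc38a2, against 12.54 to 12.68. The other probe set of Slc38a1 read 10.07 in that array, within the 9.86 to 10.27 of the others. Array 20 of paired SyCyR cells read 9.84 for Slc1a4, against 9.50 to 9.62. The odd-even difference of Ddit4 was lower in natural receptor than in parental cells by a tested -1.36 on the log2 scale.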

How the results depend on the processing

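Of 702 alternative values of 45 named differences, 627 kept their side of the threshold, 55 lost the call and 20 gained it. None changed sign where the main or the alternative value passed. Sign changes among values that passed in neither were not counted. Requiring a 1.5-fold change left 0 members between odd and even numbers in paired SyCyR cells, 2 in natural receptor, 1 in paired SyCyR and 2 in single SyCyR against parental cells, 3 between the first 2 of these receptor lines and 1 between the SyCyR lines. Of all probe sets, 0.487%, 2.97%, 0.739%, 1.61%, 2.67% and 1.13% passed in the same order. The methods' rule, an unadjusted p of at most 0.01 with 1.5-fold, gave the same counts, and 1 member each for the odd-even difference of paired SyCyR against parental and against natural receptor cells. In paired SyCyR against parental cells the count of 4 became 2 without numbers 17 and 18 and 2 with each array centred on its median.

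With consecutive numbers as a replicate block, 4 members passed between odd and even numbers in natural receptor and 2 in paired SyCyR cells, where 8.39% and 1.61% of all probe sets passed. With title number as a block, 12 passed between natural receptor and parental cells in place of 8, 13 between paired SyCyR and natural receptor in place of 9 (25% and 25.5% of all probe sets), and 1 in the odd-even difference of these receptor lines (0.278%). Same-numbered arrays of the other compared lines correlated at as little as 0.0719, not far below the lines treated as pairs, and all of them share only a number. The block gave 5 members in paired SyCyR and 13 in single SyCyR against parental cells (13.7% and 22.9% of all probe sets). It gave 14 between the SyCyR lines (14.1%), and 1 in the odd-even difference of paired SyCyR against parental cells (0.73%). Among the 13, Trib3 was higher in single SyCyR cells by 0.48 (adjusted p = 0.00118, limma). A covariate for the number pair, chosen after seeing the data, gave 13 for natural receptor against parental (24.6% of all probe sets) and 15 between the SyCyR lines (13.7%). It gave 1 in each of the odd-even differences named above, of paired SyCyR against natural receptor (0.325%) and against parental cells (0.735%).

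With each title number left out in turn, the counts ranged from 1 to 2 (odd-even, natural receptor, with Vldlr added without 13), 0 to 1 (odd-even, paired SyCyR), 7 to 10, 0 to 3 and 5 to 8 (natural receptor, paired SyCyR and single SyCyR against parental), 8 to 10 (paired SyCyR against natural receptor) and 4 to 8 (between the SyCyR lines). The cause was not tested. Signals near background limit what can be read from the 4 dim members.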
